A study of Mus musculus with 384 samples.

Results

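The 6 genes described here belong to the interleukin 1 and tumour necrosis factor systems and were followed in single sorted kidney cells. They are the agonists Il1b, Il1a and Il1f6 (the symbol used here for IL-36 alpha), the interleukin 1 receptor antagonist Il1rn, the cytokine Tnf and the NF-kB inhibitor Nfkbia. The genes were taken by symbol from the deposited count tables after repeated lines of an Ensembl gene were dropped, which gave 6 of the 40594 genes present in both tables. The cells came from mouse kidney at 8 weeks of age and were sorted one per well by FACS-seq. The groups were PDGFRB+CD45+ cells (CD45+ from here) and PDGFRB+CD45- cells (CD45-), each sorted on 1 plate in batch 1 and 1 plate in batch 2, so that 4 plates of 96 wells were read. Names of wells include the letters UUO without further explanation, and no animal, strain, genotype or treatment is given. A plate was therefore the unit of comparison, 1 per gate and batch, and no test was run over wells.

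IL-1 alpha and IL-1 beta are agonists of the same receptor, IL1R1, and are among the main alarm cytokines of macrophages and other myeloid cells. IL-1 beta is made as an inactive precursor that inflammasome caspases cut, whereas the product of Il1rn occupies the receptor without signalling. TNF acts through its own receptors, and both families lead to NF-kB, which in turn switches on Il1b, Tnf and Nfkbia, the last of which holds NF-kB in the cytoplasm and closes a negative feedback loop.

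In all, 368 of the 384 wells were kept, 90 to 93 per plate, with at least 10000 reads and 500 genes each. Between 26479862 and 31756482 reads were summed per plate, and a kept well held 10497 to 1246070 reads. Levels are CPM, reads of a gene after every plate or well was scaled to a common read total, and are compared within a gene and not between genes, because no transcript length was applied. Molecular identifiers were not stated, so intervals on counts and shares cover counting error only. Ptprc, which encodes CD45, was at 469 CPM in CD45+ and 0.136 CPM in CD45- wells of batch 1, and at 303 and 0.976 CPM in batch 2. Pdgfrb, whose protein was stained in both gates, was at 0.113 CPM in CD45+ and 294 CPM in CD45- wells of batch 1 and at 5.73 and 220 CPM in batch 2, so its transcript was near 0 in the CD45+ plates. All 8 listed leukocyte markers and all 7 macrophage markers measured were at least 4-fold higher in CD45+ in both batches, and all 6 fibroblast markers were at least 4-fold lower.

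The 250 bases before the annotated starts of the genes that separated the gates, and of Nfkbia, are given below from RefSeq on build GRCm38.p6, 5′ to 3′ on the gene's own strand. They are shown because these genes are textbook NF-kB and AP-1 targets whose levels are compared across the same wells. Both strands were searched for 3 motifs. These were TATAAA, the AP-1 site TGANTCA and the 10-base kappa B consensus. Capitals mark the matches.
Il1b, chr2:129371140-129371389, minus strand: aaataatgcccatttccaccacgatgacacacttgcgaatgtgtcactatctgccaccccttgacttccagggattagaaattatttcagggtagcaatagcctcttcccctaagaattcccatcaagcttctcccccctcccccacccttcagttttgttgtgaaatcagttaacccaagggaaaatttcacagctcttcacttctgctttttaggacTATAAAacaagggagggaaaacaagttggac
Tnf, chr17:35202008-35202257, minus strand: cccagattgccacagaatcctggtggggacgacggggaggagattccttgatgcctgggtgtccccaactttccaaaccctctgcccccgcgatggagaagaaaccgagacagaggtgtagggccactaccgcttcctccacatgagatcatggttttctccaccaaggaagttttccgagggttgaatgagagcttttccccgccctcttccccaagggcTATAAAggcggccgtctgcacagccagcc
Il1rn, the first of 3 annotated starts, chr2:24336610-24336859, plus strand: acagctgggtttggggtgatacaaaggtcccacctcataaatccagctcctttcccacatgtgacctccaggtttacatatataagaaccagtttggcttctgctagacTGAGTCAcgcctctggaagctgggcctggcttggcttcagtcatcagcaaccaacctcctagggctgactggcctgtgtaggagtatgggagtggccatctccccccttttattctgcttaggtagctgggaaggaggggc
Nfkbia, chr12:55492648-55492897, minus strand: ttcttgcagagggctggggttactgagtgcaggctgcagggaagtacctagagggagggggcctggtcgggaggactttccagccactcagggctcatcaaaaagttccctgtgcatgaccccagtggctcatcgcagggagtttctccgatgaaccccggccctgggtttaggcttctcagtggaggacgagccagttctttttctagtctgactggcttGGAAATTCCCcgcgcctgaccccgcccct

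TATAAA began 31 bases before the start of Il1b and 29 bases before that of Tnf, a match found in 12.4% of all 32851 windows of 250 bases in the same table. The window of the first Il1rn start held TGAGTCA, whose first base lay 141 bases before that start, and 6.75% of windows held an AP-1 match. The windows of the other annotated Il1rn starts, not printed, held no match to any of the motifs. The window of Nfkbia held the kappa B match 29 to 20 bases before the start, on the opposite strand, against 7.25% of windows. None of the matches overlapped. Promoters of 5 of the 6 genes were in the table, and the window of Il1a, not printed, held TATAAA and the AP-1 site TGACTCA. A match describes these letters and is not evidence that a factor was bound in these cells.

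Il1b, the leading agonist (ENSMUSG00000027398, chromosome 2, 129364570 to 129371139, minus strand, GRCm38), was a CD45+ transcript in both batches. The 92 CD45+ wells of batch 1 ranged from 0 to 25452 CPM with a median of 168 CPM, and the 93 CD45- wells from 0 to 11.1 CPM with a median of 0. In batch 2 the 90 CD45+ wells ranged from 0 to 73089 CPM with a median of 742 CPM, and the 93 CD45- wells from 0 to 310 CPM with a median of 0. The gates overlapped in the lower part of the CD45+ range, up to 11.1 CPM in batch 1 and 310 CPM in batch 2. The 310 CPM were those of CD45- well 43 with 161 reads, above the lower quartile of 55.02 CPM in the CD45+ wells. CD45- well 33 of that plate had 168 CPM from 2 of 11871 reads. Summed over the plate, Il1b was at 1102 CPM in CD45+ and 0.511 CPM in CD45- wells of batch 1, a 2155-fold difference, and at 1645 and 6.27 CPM in batch 2, a 263-fold difference. On the log2 scale with 1 CPM added to both gates, which understates differences of genes near 0, the CD45+ over CD45- ratios were 9.51 and 7.82. The smaller ratio of batch 2 rested on 1 CD45- well: without well 43 the CD45- level was 1.22 CPM and the ratio 9.54. Wells are numbered by their place in the listing of their group, and the same number marks the same row and column on every plate.

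Calls required a ratio of 4-fold or more, pointing the same way, in each batch. By that rule 3 of the 6 genes, Il1b, Il1rn and Tnf, were higher in CD45+ and none was lower, against 4.33% of the 12882 genes tested (mean of at least 1 CPM) that were higher and 12.9% that were lower. The median log2 ratio of the 6 genes was 4.54 in batch 1 and 3.55 in batch 2, against -0.39 and -0.56 over all genes tested. With Il1a, which had no CD45- read, at its lower bound in batch 1 and left out in batch 2, the medians were 5.64 and 4.20. These 6 genes were chosen with earlier results of the same plates known, so the count is a description.

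**Figure D1:**
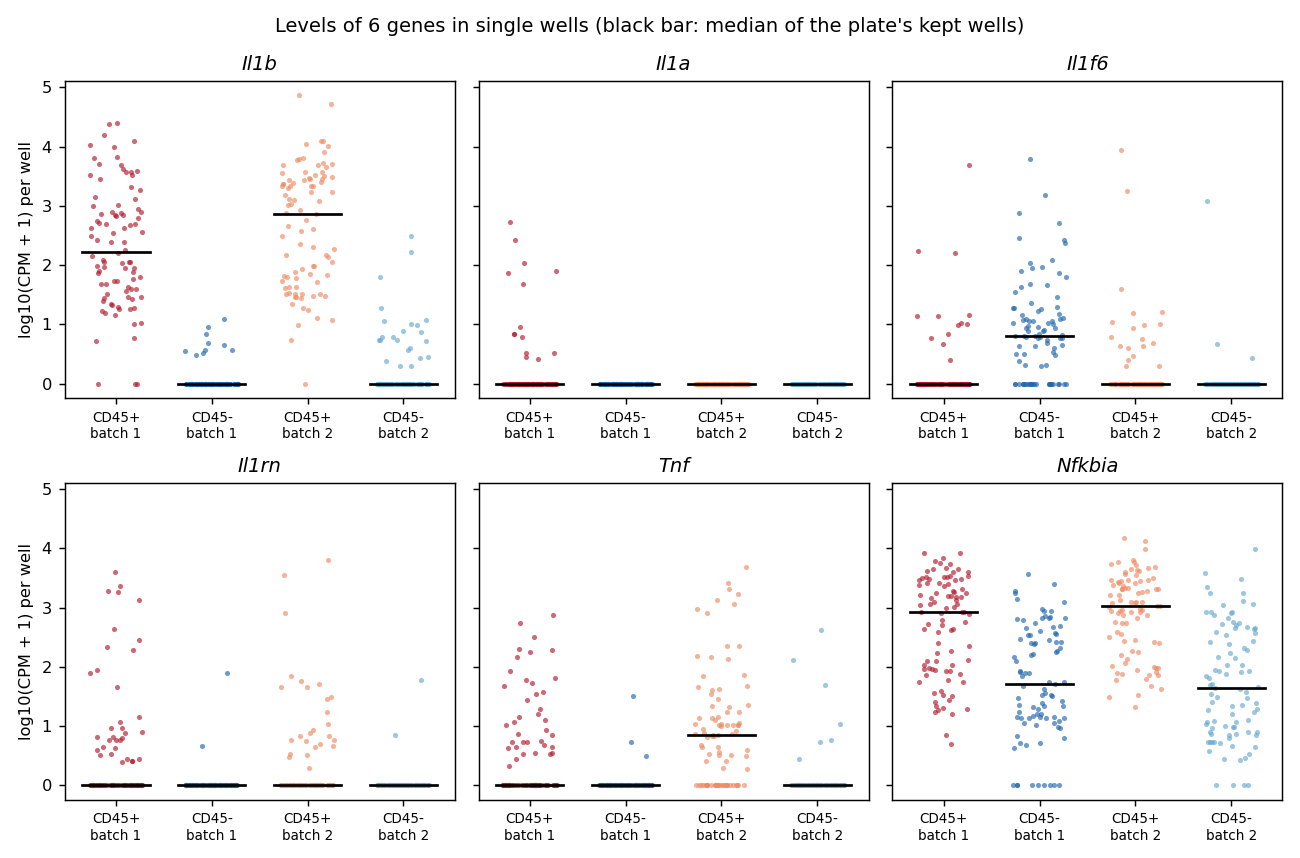
Level of each gene in every kept well, as log10(CPM + 1), with CD45+ wells left of CD45- wells in each batch and a black bar at the plate's median. Il1b and Nfkbia are spread over the CD45+ wells (medians of 168 and 742 CPM, and of 857 and 1045 CPM), whereas most wells have no read of Il1a, Il1f6 or Il1rn and a few wells stand far above.

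Reads of Il1b fell into 2 classes of CD45+ wells. In batch 1, 3 wells had no read, 5 had 1 to 3 reads, 49 had 4 to 30, 2 had 31 to 99 and 33 had 100 reads or more. In batch 2, 1 well had no read, 4 had 1 to 3, 37 had 4 to 30, 5 had 31 to 99 and 43 had 100 or more. No well lay between 51 and 107 reads in batch 1, or between 50 and 202 reads in batch 2. Wells of 100 reads or more were 35.9% and 47.8% of the CD45+ wells and held 97.8% and 98.4% of the Il1b reads. Below 100 reads the median was 8 and 11 reads per well, and the number hardly moved with the well's total (Spearman rho 0.09 over 59 wells and 0.17 over 47 wells that share a plate). A read of Il1b was found in 89 of 92 and 89 of 90 CD45+ wells, many more than the 33 and 43 with 100 reads or more. No well free of a cell was labelled, so whether those few reads came from the sorted cell was not tested. In terms of CPM, 53 of 92 and 58 of 90 CD45+ wells had at least 100 CPM of Il1b, a number that includes shallow wells with few reads.

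After each well of at least 50000 reads was thinned to 50000, Il1b had a read in 65 of 76 CD45+ wells (85.5%, exact binomial 95% interval 75.6 to 92.5%) and 1 of 79 CD45- wells (1.27%, 0.0320 to 6.85%) of batch 1. In batch 2 it had a read in 71 of 78 CD45+ wells (91.03%, 82.4 to 96.3%) and 5 of 82 CD45- wells (6.10%, 2.01 to 13.7%). With at least 5 reads asked for, 38 of 76 and 49 of 78 CD45+ wells passed (50% and 62.8%), and 0 and 1 CD45- wells did.

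Il1a, the second agonist of the same receptor (ENSMUSG00000027399, chromosome 2, 129299610 to 129309972, minus strand), was read on 1 plate only. The CD45+ wells of batch 1 held 577 reads (21.8 CPM), and the CD45- wells of batch 1 and both plates of batch 2 held 0. Against the 3 reads that a count of 0 allows in the CD45- wells of batch 1 (0.102 CPM), Il1a was at least 213-fold higher in CD45+. In batch 2 both gates were at 0, which allows up to 0.105 CPM in CD45+ and 0.0945 CPM in CD45- wells. The whole level was decided by a pair of wells. Well 80 held 484 of the 577 reads and well 73 held 74, and the other 12 wells with a read had 1 to 3 reads each. Without well 80 the level was 3.64 CPM and the batch 1 log2 ratio 2.21, in place of 4.51.

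Il1f6, the IL-36 alpha agonist known best from epithelia (ENSMUSG00000026984, chromosome 2, 24215418 to 24225702, plus strand), pointed in opposite directions in the batches. It was at 24.4 CPM in CD45+ and 197 CPM in CD45- wells of batch 1 (log2 ratio -2.96), and at 47.3 CPM in CD45+ and 5.45 CPM in CD45- wells of batch 2 (log2 ratio 2.91). A 4-fold difference in opposite directions was found for 3.94% of all genes tested. Single wells made the levels on every plate. In batch 1, CD45+ well 8 held 536 of 647 reads, and CD45- wells 18 and 46 held 4253 and 1235 of 5781. In batch 2, CD45+ wells 40 and 48 held 702 and 609 of 1347 reads, and CD45- well 19 held 171 of 173. With 1 well left out, the batch 1 ratio lay between -5.25 (without CD45+ well 8) and -1.09 (without CD45- well 18), and the batch 2 ratio between 1.88 (without CD45+ well 40) and 5.51 (without CD45- well 19), so that no direction is given for the gate.

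The wells rich in Il1f6 did not share a marker profile. CD45+ well 8 held 45118 CPM of S100a9 and 20911 CPM of S100a8, which encode neutrophil granule proteins, and its 8 neutrophil markers summed to 68967 CPM against a plate median of 79.9 CPM. CD45- well 46 had 5903 CPM of tubule markers against a plate median of 13.4 CPM. CD45- well 18 had 3662 CPM of Nfkbia and 21 Tnf reads besides, with Ptprc at 0, leukocyte markers at 2.92 CPM and macrophage markers at 1137 CPM. On the CD45- plate of batch 1, which held wells 18 and 46, 68 of 93 wells had an Il1f6 read, 50 of them only 1 to 3. Below 100 reads the number did not move with the well's total (Spearman rho -0.015 over 91 wells that share the plate). Whether those few reads came from the sorted cells was not tested. The other 3 plates had a read in 13 of 92 (CD45+, batch 1), 19 of 90 (CD45+, batch 2) and 3 of 93 wells (CD45-, batch 2).

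Il1rn, the receptor antagonist (ENSMUSG00000026981, chromosome 2, 24336853 to 24351494, plus strand), was higher in CD45+ in both batches but sat in very few wells. The CD45+ wells of batch 1 ranged from 0 to 4008 CPM and those of batch 2 from 0 to 6365 CPM, with a median of 0 in each, and the CD45- plates held 2 reads each. Summed, Il1rn was at 111 CPM in CD45+ and 0.0682 CPM in CD45- wells of batch 1 and at 47.8 and 0.0630 CPM in batch 2 (log2 ratios 6.71 and 5.52). The 5 richest CD45+ wells held 95.4% of its reads in batch 1 and 98.0% in batch 2. Leaving out well 95 of batch 1 lowered the level to 64.6 CPM (log2 ratio 5.94), and leaving out well 41 of batch 2 lowered it to 21.4 CPM (4.398). Thinned to 50000 reads, 9 of 76 CD45+ wells (11.8%, 5.56 to 21.3%) and 1 of 79 CD45- wells of batch 1 had a read, and 9 of 78 (11.5%, 5.41 to 20.8%) and 0 of 82 in batch 2.

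Tnf (ENSMUSG00000024401, chromosome 17, 35199381 to 35202007, minus strand) was also called higher in CD45+. The CD45+ wells of batch 1 ranged from 0 to 756 CPM with a median of 0 and the CD45- wells from 0 to 30.7 CPM with a median of 0. In batch 2 the CD45+ wells ranged from 0 to 4798 CPM with a median of 5.98 CPM and the CD45- wells from 0 to 421 CPM with a median of 0. Plate levels were 41.99 CPM in CD45+ and 0.818 CPM in CD45- wells of batch 1 (log2 ratio 4.56) and 167 and 8.19 CPM in batch 2 (log2 ratio 4.20). Most wells of either gate had few or no reads, and the upper range was held by 5 CD45+ wells of 100 reads or more in batch 1 and 7 in batch 2, with 84.5% and 96.5% of the reads.

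One CD45- well per batch held most of the Tnf reads of its plate, well 18 with 21 of 24 and well 61 with 253 of 260. Without well 18 the batch 1 ratio was 5.28, without well 61 the batch 2 ratio was 7.10, and without CD45+ well 87 the batch 1 level was 27.8 CPM and the ratio 3.99. At 50000 reads Tnf had a read in 20 of 76 CD45+ wells (26.3%, 16.9 to 37.7%) and 1 of 79 CD45- wells (1.27%) of batch 1, and in 23 of 78 (29.5%, 19.7 to 40.9%) and 2 of 82 (2.44%) of batch 2. With at least 5 reads asked for, the CD45+ shares were 7.89% and 8.97%.

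Nfkbia, the inhibitor and early target of NF-kB (ENSMUSG00000021025, chromosome 12, 55489410 to 55492647, minus strand), was the only gene of the 6 found widely in both gates. The CD45+ wells of batch 1 ranged from 3.91 to 8424 CPM with a median of 857 CPM, and the CD45- wells from 0 to 3662 CPM with a median of 51.3 CPM. In batch 2 the CD45+ wells ranged from 20.3 to 15226 CPM with a median of 1045 CPM, and the CD45- wells from 0 to 9906 CPM with a median of 43.03 CPM. The gates overlapped over most of the range, although the medians were far apart. Plate levels were 1618 and 357 CPM in batch 1 and 1837 and 486 CPM in batch 2, CD45+ before CD45-, with log2 ratios of 2.18 and 1.92, so batch 2 fell short of 4-fold and Nfkbia was not called.

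CD45- well 27 of batch 2 decided that outcome. It held 7917 of the plate's 15445 Nfkbia reads, 9906 CPM in a well with 16868 CPM of fibroblast markers and 16366 CPM of early response genes. Without it the CD45- level was 243 CPM and the batch 2 ratio 2.91, and Nfkbia was called. It was also called with TMM scaling (batch 2 ratio 2.48), with DESeq2 size factors (2.53) and with each well weighted the same (2.24). After thinning, Nfkbia had a read in 93.4% of CD45+ and 67.1% of CD45- wells of batch 1 and in 97.4% and 64.6% in batch 2.

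**Figure D2:**
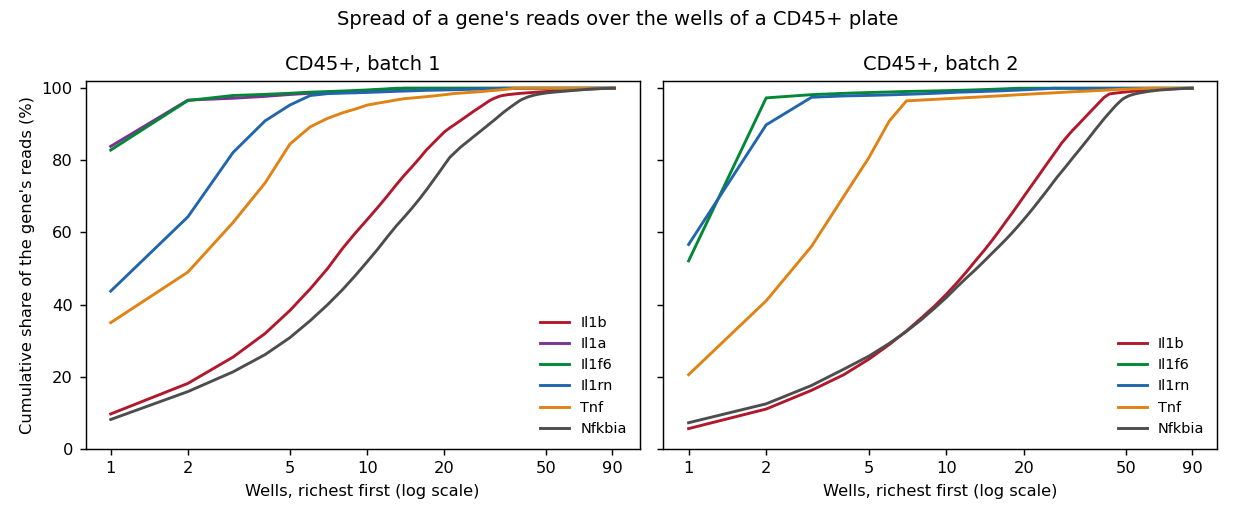
Cumulative share of a gene's reads against the number of CD45+ wells, richest first on a log scale, for batch 1 and batch 2 (Il1a has no reads in batch 2). The 5 richest wells hold 38.4% and 24.8% of the Il1b reads and 30.8% and 25.7% of the Nfkbia reads, against 95.4% and 98.0% for Il1rn and 84.5% and 80.7% for Tnf.

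The genes differed in how many wells carried them. In CD45+ wells, 50% of the Il1b reads were held by 8 wells in batch 1 and 13 in batch 2, and 50% of the Nfkbia reads by 10 and 14 wells. For Tnf 3 wells were enough in each batch, for Il1rn 2 and 1, and for Il1a and Il1f6 1 well. The 5 richest wells of Il1b, which held 38.4% and 24.8% of its reads, held 8.54% and 11.8% of all reads of the plates. The richest wells by reads were not the richest by CPM. In batch 1, well 20 held 2817 Il1b reads among 987435 reads in all, 2853 CPM, while well 7 held 1909 among 75004, 25452 CPM. In batch 2, well 71 held 2621 among 1040041, 2520 CPM, while well 33 held 2022 among 27665, 73089 CPM. Il1b reads per rich well spanned 107 to 2817 in batch 1 and 202 to 2621 in batch 2.

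Of the 33 CD45+ wells of batch 1 with at least 100 Il1b reads, 2 also had at least 100 Il1rn reads, and of the 43 in batch 2, 2 did (6.06% and 4.65%), where 5.43% and 3.33% of all CD45+ wells were rich in Il1rn. Seen from the antagonist, 2 of its 5 rich wells in batch 1 and 2 of its 3 in batch 2 were also rich in Il1b (40% and 66.7%), where 35.9% and 47.8% of all CD45+ wells were. Counts this small do not place the antagonist with or apart from the agonist. In batch 1, well 95 had 656 Il1b and 1281 Il1rn reads and well 54 had 678 and 129, while well 23 had 15 and 604, and well 55 had 5 and 523. In batch 2, well 41 had 382 and 770 and well 63 had 373 and 104, while well 90 had 13 and 451. Well 80 of batch 1 combined 257 Il1rn reads with the 484 Il1a reads and 16 Il1b reads, and it also held 53.6% of the reads of the decoy receptor gene Il1r2 on its plate.

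At 50000 reads per well, Il1b or Il1a was found with Il1rn in 7 of 76 CD45+ wells of batch 1, agonist without antagonist in 59, antagonist alone in 2 and neither in 8. In batch 2 the counts were 9, 62, 0 and 7 of 78 wells. No CD45- well held both. With at least 5 reads of each, the wells with both were 3 and 2. Over the plate, there were 10.0 Il1rn reads per 100 Il1b reads in CD45+ wells of batch 1 and 2.90 in batch 2, or 5.78 without well 95 and 1.27 without well 41.

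The wells rich in Il1rn were of different make-up. Of the 9 CD45+ wells of batch 1 with at least 100 CPM of Il1rn, wells 55, 54, 17, 69 and 25 had 26369, 16073, 43297, 19998 and 86280 CPM of neutrophil markers, against a plate median of 79.9 CPM. In the same order, their macrophage markers were at 5242, 1585, 10181, 2373 and 12713 CPM, so wells 17 and 25 held both kinds of marker. Wells 95, 23 and 80 had 41.3, 44.5 and 14.2 CPM of neutrophil markers, with 31594, 20065 and 16453 CPM of macrophage markers against a plate median of 11288 CPM. The ninth, well 15, had 627 CPM of neutrophil and 8963 CPM of macrophage markers, and wells 15 and 25 had 3 Il1rn reads each. In batch 2 the 3 wells, 41, 90 and 63, had 13.6, 56.5 and 238 CPM of neutrophil markers, against a plate median of 19.5 CPM. Their macrophage markers were at 31450, 2018 and 12787 CPM, against a plate median of 20126 CPM. Of the 8 neutrophil markers, 8 had a read on each CD45+ plate, where they summed to 1750 and 415 CPM, and the part of such cells in the Il1rn level was not tested.

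Tnf and Il1rn were never rich in the same well. None of the 5 and 7 CD45+ wells with at least 100 Tnf reads had more than 5 Il1rn reads, and none of the 5 and 3 wells with at least 100 Il1rn reads had more than 9 Tnf reads. With 5.43% and 7.78% of wells rich in Tnf, and 5.43% and 3.33% rich in Il1rn, no shared well is a weak observation. Il1b was rich in 4 of the 5 and 4 of the 7 wells rich in Tnf, where 35.9% and 47.8% of all CD45+ wells were rich in Il1b. Counts this small do not place Tnf with or apart from Il1b. Wells 87, 68, 81 and 71 of batch 1 had 668, 2474, 1076 and 463 Il1b reads, whereas the fifth, well 73, had 9 Il1b reads and the 74 Il1a reads. In batch 2 wells 9, 81, 1 and 92 had 233, 1538, 1103 and 202 Il1b reads, whereas wells 86, 35 and 62 had 10 to 11.

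**Figure D3:**
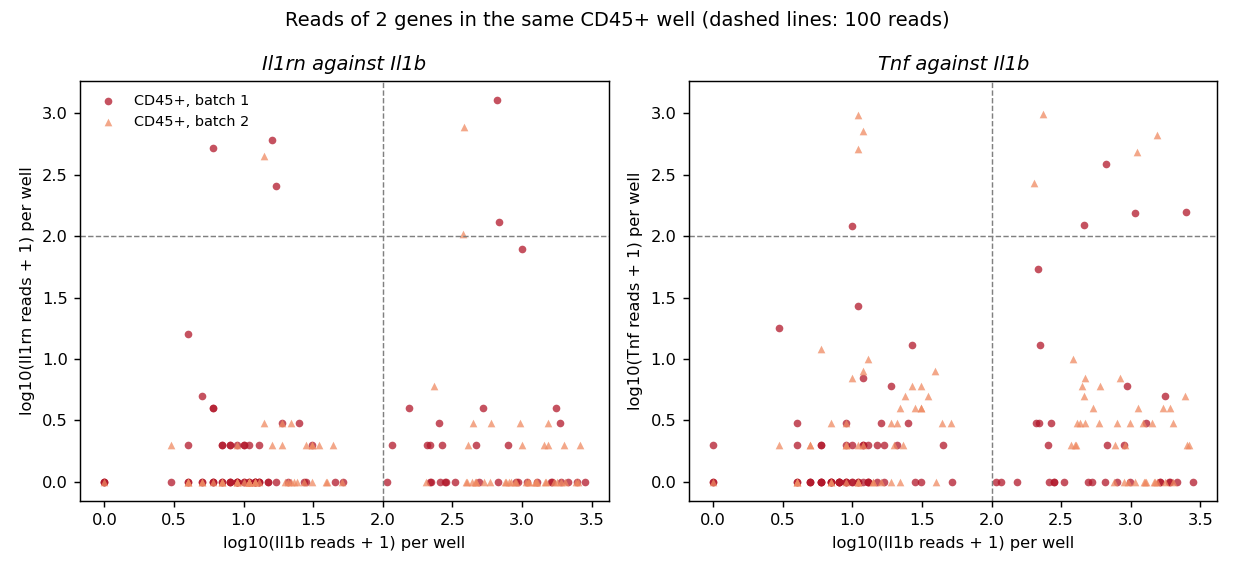
Reads of Il1rn (left) and Tnf (right) against reads of Il1b in each kept CD45+ well, as log10(reads + 1), circles for batch 1 and triangles for batch 2. Il1b splits into a class around 10 reads and a class above 100 (dashed lines), and the 8 wells rich in Il1rn and the 12 rich in Tnf are found in both classes.

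Most wells rich in Il1b were also rich in Nfkbia. At least 100 Nfkbia reads were present in 24 of the 33 wells rich in Il1b in batch 1 (72.7%) and in 31 of 43 in batch 2 (72.1%), where 46.7% and 57.8% of all CD45+ wells had as many. The rank correlation of Il1b and Nfkbia CPM over thinned CD45+ wells was 0.39 (76 wells, batch 1) and 0.26 (78 wells, batch 2). That of Il1b was -0.09 and 0.13 with Il1rn and 0.12 and 0.01 with Tnf. Il1rn and Tnf had no read in most thinned wells, so these coefficients do not rank the genes. These wells share a plate and a library pool, and the coefficients are descriptions.

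Among the 1294 genes read in at least 20% of thinned wells on both CD45+ plates, those most like Il1b were Cxcl2, a chemokine gene (0.39 and 0.38), the stress response gene Ppp1r15a (0.32 and 0.33), the endotoxin co-receptor gene Cd14 (0.34 and 0.28), Laptm5 and Btg2. Those most like Nfkbia were Btg2 (0.47 and 0.45), Egr1 (0.48 and 0.44), H3f3b, Dusp1 and Mgl2, with Btg2, Egr1 and Dusp1 being early response genes. The summed level of 14 early response genes, which also respond to tissue dissociation, correlated with Nfkbia at 0.39 and 0.58 and with Il1b at 0.27 and 0.36. That sum had a median of 5715 CPM in CD45+ and 994 CPM in CD45- wells of batch 1 and of 9288 and 1288 CPM in batch 2. It thus moved with the gate in the same direction as Nfkbia and Il1b, and its part in their levels was not tested. The genes in the sum did not all do so. By the 4-fold rule 4 of the 14 were higher in CD45+, 1 was lower and 9 were neither. Of all genes tested, 4.33% were higher and 12.9% lower. Il1b also correlated with the summed neutrophil markers, at 0.32 and 0.18. Wells 17, 54 and 25 of batch 1, with 23827, 12355 and 10856 CPM of Il1b, had 43297, 16073 and 86280 CPM of neutrophil markers. Wells 92, 8, 55 and 69 of the same plate had 125015, 68967, 26369 and 19998 CPM of these markers. Their Il1b was at 262, 248, 38.3 and 86.8 CPM, against a plate median of 168 CPM. Neutrophil-marker-rich wells were thus both high and low in Il1b, and the part of such cells in the Il1b level was not tested. All of these wells were picked after their values were seen. The genes most like Tnf were Phf11b, Col14a1, C3ar1, Cysltr1 and Atp6v1g1 (coefficients of 0.21 to 0.32), and those most like Il1rn were Fam195b, Elof1, Ifitm6, Scamp2 and Cd79b (0.23 to 0.42). In such sparse counts these are not a finding.

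The few Il1b and Il1rn reads of the CD45- plates lay mostly at positions rich in the same gene on the CD45+ plate. Counted over all 96 wells, the CD45- plate of batch 1 had 15 Il1b reads in 10 wells, and all 10 stood at the row and column where the CD45+ plate of the same batch had at least 100 Il1b reads, which was so for 33 of 96 positions. In batch 2, 21 of 25 CD45- wells with a read, and 199 of 203 reads, stood at the 43 rich positions of their own batch. Against the rich positions of the other batch, 5 of 10 and 9 of 25 wells matched. Il1rn was alike, and its 2 CD45- reads in each batch all fell at the 5 and 3 rich positions of the same batch and none at those of the other. The CD45- reads of the 10 wells of batch 1 were 0.0524 to 0.375% of those in the CD45+ well of the same position. Per the labels' protocols, plates were pooled before sequencing, and the part of that step in these reads was not tested.

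**Figure D4:**
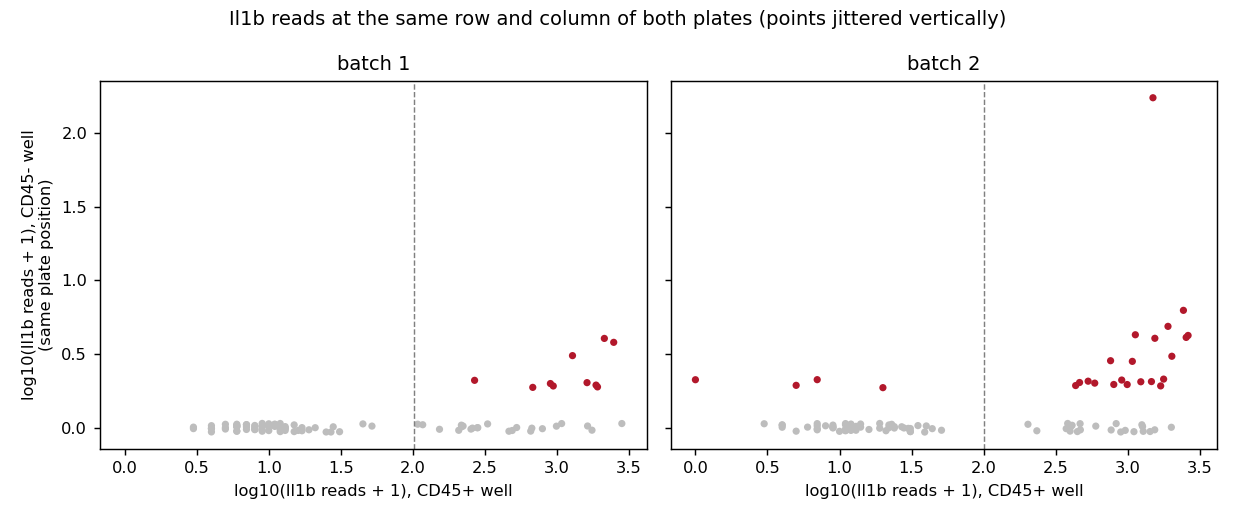
Il1b reads in the CD45- well (vertical, log10 of reads + 1, jittered) against those in the CD45+ well of the same row and column (horizontal), for batch 1 and batch 2, with CD45- wells that have a read in red. The red points sit right of the dashed line at 100 CD45+ reads in 10 of 10 wells of batch 1 and 21 of 25 wells of batch 2.

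CD45- well 43 of batch 2 held 161 Il1b reads where the CD45+ well held 1495, a share of 10.8%. The other wells of that plate with Il1b reads at the same position in both gates had shares of 0.0564 to 25%, with a median of 0.186%, the highest being single reads opposite CD45+ wells with few Il1b reads. Well 43 had no Ptprc read, and 18821 CPM of Aqp2, the collecting duct water channel. Its leukocyte markers were at 592 CPM, 302 CPM of them Cd74, against a plate median of 211 CPM. Its macrophage markers were at 21.2 CPM against a plate median of 40.7 CPM. The source of its 161 Il1b reads was not tested. Of the CD45- wells with a Tnf read, 0 of 3 in batch 1 and 2 of 7 in batch 2 stood at rich positions, which were 5 and 7 of 96. Of those with an Il1f6 read 1 of 68 and 0 of 3 did, where only 1 and 2 positions were rich, so few wells could match. No contrast of Tnf or Il1f6 with Il1b is drawn from these counts. Well 18 of batch 1 had 21 Tnf reads opposite 0 in the CD45+ well, and well 61 of batch 2 had 253 opposite 2, in a well with 1294 CPM of Aqp2, 291 CPM of the epithelial gene Epcam and no Ptprc read.

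Genes around the 6 were taken from 8 lists of IL-1 and TNF family ligands, receptors, processing enzymes, NF-kB components, adaptors and targets. Of their 96 genes in the files 75 were tested, and 17 were higher and 4 lower in CD45+ by the 4-fold rule in both batches, against 4.33% and 12.9% of all genes tested. When 1 well was left out, 11 of the 21 called genes lost the call and 14 of the 54 others gained one. Those named here kept their call without any single well unless stated.

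Among ligands, Il33 and Tnfsf15 were lower in CD45+. The nuclear alarmin gene Il33 was at 8.35 CPM in CD45+ and 405 CPM in CD45- wells of batch 1 and at 53.7 and 418 CPM in batch 2 (log2 ratios -5.44 and -2.94). Well 5 of batch 1 held 94.1% of its CD45+ reads and well 18 of batch 2 held 61.3%, and without them the ratios were -8.08 and -4.21. Il18, another inflammasome substrate, was higher in CD45+ (log2 ratios 2.49 and 5.37), a call lost without well 90 or well 30 of the CD45+ plate of batch 1 (1.97 and 1.85). Of the TNF family, Tnfsf15 had ratios of -4.49 and -4.78, and Tnfsf9 and Ltb were higher. The call of Tnfsf9 was lost without CD45+ well 31 of batch 1 (1.53), and that of Ltb without CD45+ well 84 of batch 1 (-0.04) or well 14 of batch 2 (0.29).

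Of the 6 receptor and decoy genes tested in the IL-1 family, 2 were higher and 1 lower in CD45+. The decoy receptor gene Il1r2 was at 116 CPM in CD45+ and 0.239 CPM in CD45- wells of batch 1 and at 48.1 and 0.189 CPM in batch 2 (6.56 and 5.37), with 55.7 CPM and a ratio of 5.52 in batch 1 without well 80. The signalling receptor gene Il1r1 was at 10.4 and 35.7 CPM in batch 1 and 0.176 and 92.6 CPM in batch 2, CD45+ before CD45-. Its ratios of -1.69 and -6.32 did not make the call, but they did without CD45+ well 91 of batch 1, which left 0.897 CPM there and a ratio of -4.28. Tnfrsf1a, the widely expressed TNF receptor gene, was at 92.8 and 125 CPM in batch 1 and 105 and 200 CPM in batch 2, CD45+ before CD45-, with ratios of -0.42 and -0.92. Il1rl1, which encodes the IL-33 receptor, was higher in CD45+ (4.86 and 5.19), but without CD45+ well 65 of batch 1 its ratio there was 1.17. Tnfrsf11a was higher as well, lost without CD45+ well 71 of batch 1 (0.89), and Sigirr, a brake on IL-1 signalling, was lower, lost without any of 4 CD45- wells.

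Of the 8 inflammasome genes 2 were higher in CD45+. Nlrp3, the sensor, was at 114 CPM in CD45+ on both plates and at 0.136 and 0.157 CPM in CD45- wells (6.66 and 6.64). In batch 1 well 68 held 64.5% of its CD45+ reads, without which the level was 41.3 CPM and the ratio 5.22, and the same well had the second most Il1b reads, a coincidence picked out after the values were seen. Aim2, the DNA sensor, was the other, lost without CD45+ well 85 of batch 1 (0.67). The adaptor Pycard, at 619.5 CPM in CD45+ and 166 CPM in CD45- wells of batch 1 and 465 and 78.4 CPM in batch 2, had ratios of 1.90 and 2.55 and was not called, but it was without CD45- well 73, 9 or 46 of batch 1 (2.03, 2.06 and 2.15).

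Among 16 NF-kB components, 5 were higher in CD45+ and none lower, namely Rel, Nfkbid, Nfkbiz, Nfkbie and Tnfaip3. Nfkbid was at 171 CPM in CD45+ and 0.0682 CPM in CD45- wells of batch 1 and at 98.9 and 0.504 CPM in batch 2 (7.33 and 6.05), and Nfkbiz at 289 and 37.7 CPM and at 395 and 9.195 CPM (2.91 and 5.28). Rel had ratios of 6.01 and 3.24. The CD45- well 27 of batch 2 that was rich in Nfkbia also held 96.3% of the CD45- reads of Rel on its plate and 87.9% of those of Ccl2, and without it their batch 2 ratios were 6.07 and 7.18 and that of Nfkbiz 7.22. The calls of Nfkbie and Tnfaip3 were lost without 1 CD45+ well, well 24 of batch 2 for Nfkbie (-0.50) and wells 65 of batch 1 or 70 of batch 2 for Tnfaip3 (1.68 and 1.48). Rela, the main activating subunit, was at 54 and 50.4 CPM in batch 1 and 62.3 and 67.5 CPM in batch 2, CD45+ before CD45- (0.10 and -0.11). Of 15 adaptors none was higher, Map3k7 was lower (lost without CD45- well 30 or 68 of batch 2, -1.64 and -0.80), and Myd88 had ratios of 0.06 and -0.16. Of 9 tested targets, Ccl2, Bcl2a1b, Ptgs2 and Icam1 were higher in CD45+, Ccl2 at 1534 and 3.61 CPM in batch 1 and 1116 and 54.3 CPM in batch 2, CD45+ before CD45-, and Icam1 only with CD45+ well 41 of batch 2 (-0.05 without it).

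**Figure D5:**
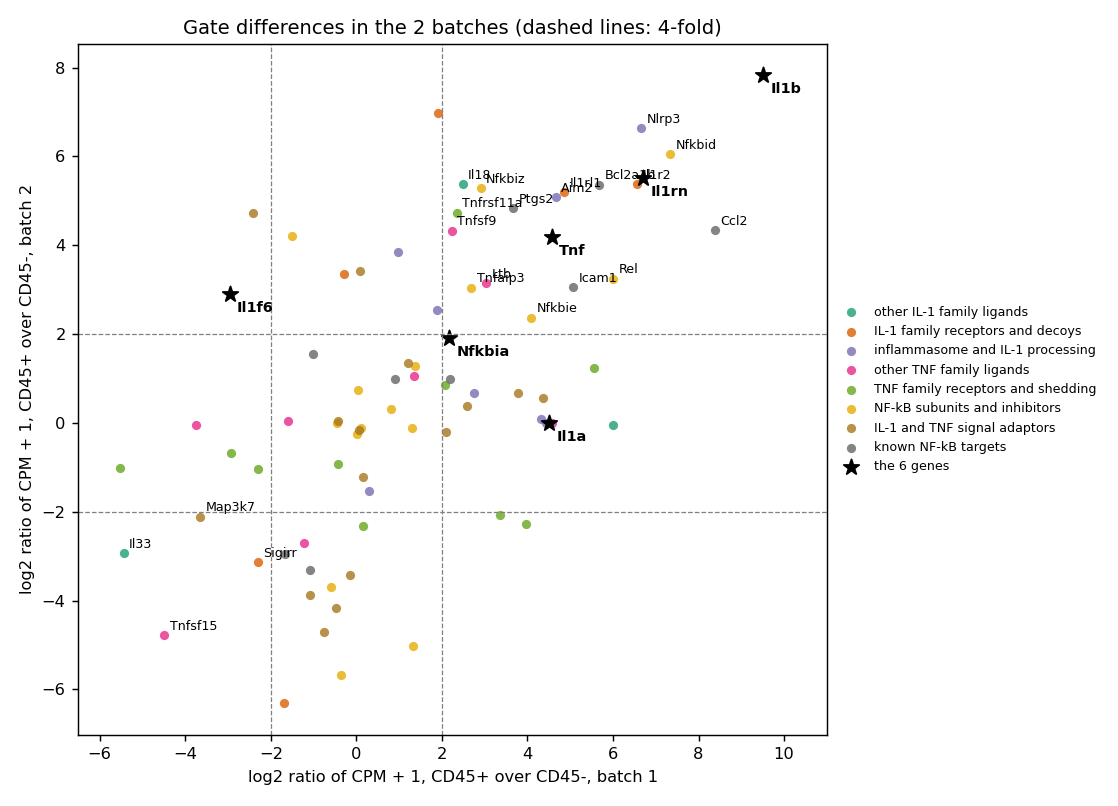
Log2 ratio of CPM + 1, CD45+ over CD45-, in batch 1 (horizontal) and batch 2 (vertical) for the 75 tested genes of the 8 lists (dots) and the 6 genes (stars), with dashed lines at 4-fold. Il1b, Il1rn and Tnf lie beyond 4-fold in both batches, Nfkbia on the line, and Il1f6 in the quadrant of opposite directions.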

How the data were processed

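Single-cell reads were analysed as raw counts per gene and well, as the authors deposited them, and the values were whole numbers whose totals differed from well to well. Per the labels' protocols, cDNA was made in each well with a SMARTer kit and plates were pooled for sequencing. The submitters' processing notes name STAR (as version 3.0.4), featureCounts 1.4.5 and Subread, and the genome build is not given in the sources used here. Gene coordinates were therefore looked up by Ensembl identifier in GENCODE M21 (GRCm38).

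Repeated lines of a gene (598 in batch 1 and 595 in batch 2, identical in counts) were dropped. Wells with at least 10000 reads and 500 genes were kept, and no doublet caller was run. Counts were summed per plate, scaled to CPM and compared between gates, batch by batch, on the scale log2(CPM + 1). A call needed a 4-fold difference in the same direction in both batches, among genes with a mean of at least 1 CPM. Detection was compared after thinning wells of at least 50000 reads to 50000. Intervals are exact (Poisson or Clopper-Pearson, 95%). On simulated plates all 200 changed genes were called and 0 of the unchanged among 23900 genes. Those plates had counting error only, changes well above 4-fold in abundant genes, and no single wells rich in a gene. The result checks that the rule was computed as stated and does not show how it performs on wells like these.

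The 6 genes and all lists were chosen with earlier results of these data known. Named genes were the 6, any list gene that was called, at most the 4 most abundant others per list, and the 5 genes most like Il1b, Il1rn, Tnf and Nfkbia by the smaller Spearman rho of the CD45+ plates. Python 3.11.15, pandas 2.3.3, numpy 2.4.6, scipy 1.17.1 and R 4.3.3 were used, with edgeR 4.0.16 (TMM) and DESeq2 1.42.0 (size factors) for alternative scalings only. Other alternatives changed the well filter, pseudocount, fold, weighting of wells, thinning depth and read minimum, or left out wells. The alternatives of at least 10 and at least 100 of all reads, and of leaving out each well in turn, were chosen after seeing the data, as were the read classes of 100 reads.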

Additional observations from a re-analysis of the deposited data

Results flagged for a closer look

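The gate difference of Il1f6 differed between the batches, with a log2 ratio of CD45+ over CD45- of -2.96 in batch 1 and 2.91 in batch 2. The difference between batches was not tested, since each gate had 1 plate per batch, and single wells held 52.1 to 98.8% of the Il1f6 reads of each plate.

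Reads of the genes were also present in wells that the filter left out. The 4 left-out CD45+ wells of batch 1 held 27 Il1b and 33 Nfkbia reads, against 0 and 8 in the 3 left-out CD45- wells. The 6 left-out CD45+ wells of batch 2 held 83 Il1b, 64 Nfkbia and 9 Tnf reads, against 4, 2 and 0 in the 3 left-out CD45- wells. Il1b in the left-out CD45+ wells was at a summed level of 802 CPM in batch 1 and 1773 CPM in batch 2. The kept wells of the same plates were at 1102 and 1645 CPM, with 97.8% and 98.4% of those reads in wells of 100 reads or more. No left-out well held that many Il1b reads, so these levels are not of like wells.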

How the results depend on the processing

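Il1b, Il1rn and Tnf were called higher in CD45+ under all 10 alternatives tried for the call, and the number of the 6 genes called was 3 or 4, the 4th being Nfkbia. Scaling moved the median log2 ratio of all genes from -0.39 and -0.56 to -0.10 and -0.10 with TMM and to -0.09 and -0.07 with DESeq2 size factors, and the share of higher among called genes from 25.1% to 33.4% and 34.1%. That share was 40.7% with a pseudocount of 10 CPM. It was 18.8% when each gene's own richest well was left out of each plate, a different well for different genes. Of the list genes, 21 were called, against 8 with a pseudocount of 10 CPM, 34 with a 2-fold and 12 with an 8-fold rule. Shares of CD45+ wells with a read moved with the read minimum and depth. With at least 5 reads they were 50 and 62.8% for Il1b, 7.89 and 8.97% for Tnf, 76.3 and 79.5% for Nfkbia in batches 1 and 2, and 2.56% for Il1rn in batch 2. Thinned to 20000 reads, Il1b was found in 73.2% in batch 1, and thinned to 100000 reads Il1b was found in 98.6%, Tnf in 43.1% and Nfkbia in 100% in batch 2. With CPM in place of reads, the 5 leading wells held 51.99 and 54.6% for Il1b, 69.8 and 73.7% for Tnf, 23.8 and 28.4% for Nfkbia, and 88.9% for Il1rn in batch 1. Wells with agonist and antagonist numbered 3 and 2 at 5 reads, 3 and 2 at 100 of all reads and, in batch 2, 3 at 10 of all reads. The cause of these shifts was not tested. No paired analysis was possible because no result comes from a test: the gates were already compared within each batch, and replicate numbers mark plate positions, not cells of 1 source.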
